A study of Mus musculus with 3 samples.

Results

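Antigen presentation was followed through palatal fusion with 10 genes of the major histocompatibility complex (MHC) and of antigen processing: *B2m*, *H2-K1*, *H2-D1*, *Tap1*, *Psmb8*, *Psmb9*, *Cd74*, *H2-Aa*, *H2-Ab1* and *H2-Eb1*. They form a list chosen by name, with earlier results of these data known, so the counts below describe the genes and are no independent evidence of a direction. All their probe sets that name a single gene were used, 31 probe sets for 10 of the 18193 genes on the array. Expression was measured in maxillae of ICR fetuses removed at E14 and grown in rolling suspension culture, with 1 Affymetrix GeneChip array before fusion (5 h, edge of the palatal shelves), 1 during fusion (24 h, median tissue) and 1 after fusion (60 h, median tissue). ICR is an outbred stock, no group was treated or genetically modified, and all 3 groups share the culture, in BGJb medium. The methods give 5 samples per stage without saying whether their RNA was combined. Stage and hours in culture changed together at each step, and the piece of tissue changed with them between before fusion and the later stages. These cannot be told apart.

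Class I molecules, a heavy chain such as H2-K or H2-D with β2-microglobulin, are made by nearly all nucleated cells and display peptides from proteins of the cell itself. These peptides are cut by the proteasome, in which inducible subunits can replace the constitutive ones, and are carried into the endoplasmic reticulum by the TAP transporter. Class II molecules pair an α and a β chain, are guided by the invariant chain CD74 and display peptides from the endocytic pathway; they are known from dendritic cells, macrophages, B cells and thymic epithelium, and interferon γ can induce them in other cells. Embryonic tissue is known for low levels of both classes.

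Each stage rests on a single array. Stages were therefore compared without a test or a p-value, and embryo differences cannot be told apart from stage differences. The deposited signals were scaled to one trimmed mean, and 83 probe sets of sensory receptor genes (olfactory, vomeronasal, bitter taste) served as background. A floor was set for each array at their 95th percentile, 19.4 before, 13.3 during and 14.6 after fusion. A signal under the floor was raised to it, a ratio with one such side is a bound ("at least"), and no ratio is given where both sides lay under the floor or the bound fell under 1-fold. The only spread to set beside a ratio is that between probe sets of the same gene, with an SD on the log2 scale of 0.37 (during over before), 0.46 (after over before) and 0.44 (after over during); it is not a spread between embryos. The labels call all samples female, yet the Y-linked genes *Eif2s3y*, *Kdm5d* and *Uty* lay above the floor at each stage, with *Eif2s3y* at 71.7 before, 196 during and 113 after fusion, and so did *Xist* (2074, 3224 and 1351). Of 8 epithelial marker genes, 7 lay above the floor before fusion and 8 at both later stages. All 8 marker genes of the palatal mesenchyme lay above it at each stage, as did all 8 of endothelium. Of all probe sets naming 1 gene, 64.1% before, 71.8% during and 69.5% after fusion lay above it, so this is a weak check of the tissue. The levels of the markers differed between stages, and their values stand beside those of the other cell types.

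After fusion, most of the measured probe sets of these genes had higher signals than before fusion, with the class I genes *B2m*, *H2-K1* and *H2-D1* higher at both steps. *H2-Eb1*, a class II β chain, was higher by an order of magnitude already during fusion, on 1 probe set that lay near the floor before fusion. Of the 31 probe sets, 22 passed the floor on 1 array or more and 9 on none. By array, 16 passed it before, 22 during and 21 after fusion, beside 64.1%, 71.8% and 69.5% of all probe sets naming 1 gene. During fusion, 1 of the 19 probe sets with a ratio was over 2-fold higher than before fusion, beside 5.17% of the 24143 probe sets naming 1 gene, and 0 were over 2-fold lower, beside 3.53%. By this count the genes lay near the background. Their median log2 ratio was 0.59, against -0.02 over all probe sets. After fusion, 14 of 20 were over 2-fold higher than before fusion, beside 10.8% of 24480, and 0 were lower, beside 10.6%. The 14 became 7 with the arrays scaled on the poly-A controls, which moved all log2 ratios of this comparison by -0.39. The share over all probe sets under that scaling was not computed. Without the 19 probe sets marked as shared between genes, fewer had a ratio, and 6 of these were higher. The median log2 ratio of this smaller set was 1.27. The share over all probe sets without this mark was not computed. In the main setting the median log2 ratio of the members was 1.26, against -0.10 over all. From during to after fusion, 3 of 22 were over 2-fold higher, beside 7.32% of 26226, and 0 were lower, beside 6.43%, with a median log2 ratio of 0.68 against -0.06. A probe set dim before fusion enters these counts only if it was brighter later. Among the 16 member probe sets above the floor on all 3 arrays, which the floor does not select in this way, 11 were over 2-fold higher after than before fusion, beside 8.74% of 20915 such probe sets, 1 was higher during than before fusion, beside 4.25%, and 2 were higher after than during fusion, beside 4.97%.

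**Figure D1:**
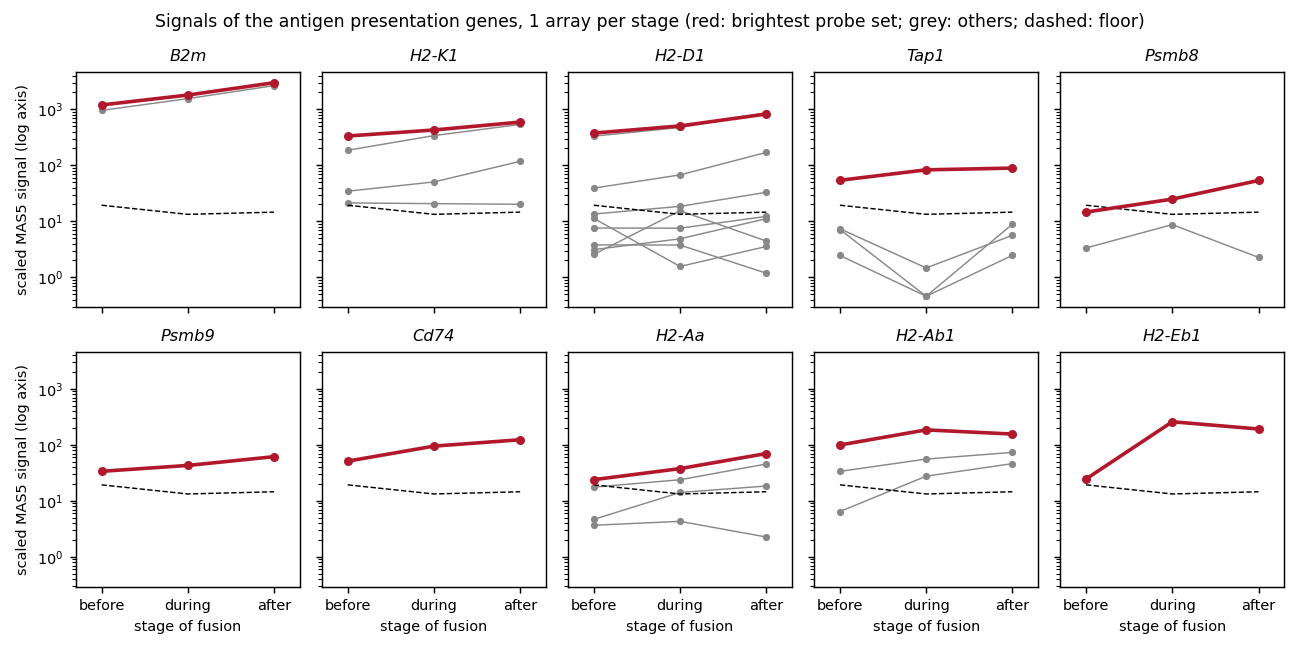
Scaled MAS5 signal (log axis) of every probe set of the 10 genes against the stage of fusion, 1 array per stage, with the brightest probe set of each gene in red, the others in grey and the floor of each array dashed. The lines of *B2m* run upward from 1193 to 2979 and from 953 to 2642, and *H2-Eb1* stands near the floor before fusion (24.6) and at 259 during fusion.

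The bases upstream of the members' start sites are shown because most of these genes had higher signals after fusion and because their promoters are known, in background terms, to share a module: class I and class II promoters carry an X box, whose second part resembles a cAMP response element, and a Y box, which is an inverted CCAAT box, and these are bound by RFX, CREB and NF-Y, with the coactivators NLRC5 for class I and CIITA for class II. Class I heavy chain promoters also carry enhancer A, bound by NF-κB, and an interferon response element. The RefSeq promoter table (GRCm38.p6) held 8 of the 10 genes; *H2-Ab1* and *Cd74* had no entry used here. The 250 bases before each start were searched on both strands for GGGATTCCC (the core of enhancer A), GAANNGAAA (an interferon factor repeat), TGACG (in the second part of the X box), CCAAT, and GCAACT (in the first part of the X box). The letters were chosen with knowledge of these promoters, so a match is a description. Only these exact letters were searched, so close variants, such as gaaactgaaa in *B2m*, stay unmarked. A window without a match may still hold such a site. The 200 bases before the start are printed 5′ to 3′ on the strand of the gene, with all matches in capitals. The sequence of *Psmb9* also covers most of the *Tap1* promoter, since their starts lie 226 bases apart in opposite directions.
B2m, chr2:122147487-122147686, plus strand: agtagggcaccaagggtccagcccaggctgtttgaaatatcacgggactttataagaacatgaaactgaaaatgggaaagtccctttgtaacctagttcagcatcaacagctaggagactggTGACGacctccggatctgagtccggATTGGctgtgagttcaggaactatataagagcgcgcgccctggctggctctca
H2-K1, chr17:34000348-34000547, minus strand: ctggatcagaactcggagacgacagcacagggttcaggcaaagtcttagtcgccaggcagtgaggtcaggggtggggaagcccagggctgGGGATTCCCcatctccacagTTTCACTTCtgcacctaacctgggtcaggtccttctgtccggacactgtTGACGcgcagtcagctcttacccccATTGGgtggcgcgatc
H2-D1, chr17:35262894-35263093, plus strand: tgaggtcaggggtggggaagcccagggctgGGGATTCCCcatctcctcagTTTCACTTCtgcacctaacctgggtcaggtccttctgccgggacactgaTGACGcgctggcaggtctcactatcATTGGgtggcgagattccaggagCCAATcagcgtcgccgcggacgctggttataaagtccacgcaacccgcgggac
Psmb9, chr17:34187331-34187530, minus strand: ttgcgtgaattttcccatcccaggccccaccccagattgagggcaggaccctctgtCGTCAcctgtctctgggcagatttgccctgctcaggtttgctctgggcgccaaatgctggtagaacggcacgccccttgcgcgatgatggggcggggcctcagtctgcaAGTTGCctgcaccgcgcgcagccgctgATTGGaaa
H2-Aa, chr17:34287824-34288023, minus strand: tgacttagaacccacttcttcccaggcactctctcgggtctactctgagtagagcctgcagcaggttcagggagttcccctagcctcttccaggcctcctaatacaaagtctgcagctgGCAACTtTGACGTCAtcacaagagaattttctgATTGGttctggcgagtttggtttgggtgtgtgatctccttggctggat
H2-Eb1, chr17:34305667-34305866, plus strand: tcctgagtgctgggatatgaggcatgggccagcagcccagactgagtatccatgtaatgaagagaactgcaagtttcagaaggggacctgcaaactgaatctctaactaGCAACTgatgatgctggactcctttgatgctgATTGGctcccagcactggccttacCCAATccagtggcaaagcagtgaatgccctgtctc

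Both TGACG and CCAAT, on either strand, were found before the starts of 6 of the 8 genes (*B2m*, *H2-K1*, *H2-D1*, *Tap1*, *Psmb9* and *H2-Aa*), beside 6.12% of all 32851 promoter windows. This count ignores the order and spacing of the letters, so it is no count of complete modules. In *B2m*, *H2-K1*, *H2-D1* and *H2-Aa* the former began at -78, -41, -101 and -74. The latter followed in each, at -53, -16, -76 and -48. In *Psmb9* the former began at -144 and the latter at -8, and in *Tap1* the latter lay upstream, at -222 against -86. *Tap1* and *Psmb9* are each counted here, although their windows overlap and their matches lie in the same sequence. TGACG alone was in 17.8% of windows and CCAAT alone in 33.8%. The window of *H2-Eb1* lacked TGACG and held CCAAT on both strands. GCAACT, letters of the first part of the X box, was in 9.01% of windows and in both class II genes of the table. It lay at -91 from the start in *H2-Eb1* and at -81 in *H2-Aa*, where TGACG follows on both strands. The shared sequence of *Tap1* and *Psmb9* also held these letters, at -196 in *Tap1*, far from TGACG at -86. They are not shown to be part of an X box there. With the exact letters searched, the core of enhancer A was found in *H2-K1* and *H2-D1* alone, at -110 and -170 from their annotated starts (0.301% of windows). Each was followed by the interferon factor repeat (6.31% of windows), TGACG and CCAAT in the same order. *H2-K1* has 2 annotated starts in the table and the first was used. The window of *Psmb8* held none of these letters, which says nothing of the factors that bind it.

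*B2m*, the light chain shared by class I molecules, was read by 2 probe sets, neither marked as shared. On the brighter one the scaled signal stood at 1193 before fusion, 1794 during it and 2979 after it, and on the other at 953, 1548 and 2642. Each step upward was present on both probe sets. The ratio to before fusion was 1.504 and 1.62 during and 2.50 and 2.77 after fusion, and the ratio of after to during fusion was 1.66 and 1.71. Over 6 scalings of the arrays, the brightest probe set kept a ratio above 1 in each comparison, from 1.22 to 1.83 during and from 1.91 to 2.82 after fusion.

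*H2-K1* encodes a classical class I heavy chain, which presents peptides to CD8+ T cells. Its 4 probe sets all lay above the floor before fusion and all carry the mark for shared probes (_x_at), so signal from other class I genes of near-identical sequence cannot be separated. On the brightest the signals were 333, 427 and 590 before, during and after fusion, with ratios of 1.28 and 1.77 to before fusion. The next had 185, 339 and 536, with ratios of 1.83 and 2.89, and the third had 34.4, 50.4 and 118, with ratios of 1.46 and 3.41. The dimmest, just above the floor, was level at 21.3, 20.7 and 20.1. Thus 2 of the 4 probe sets were over 2-fold higher after fusion, and the ratios of this gene ran from 0.945 to 3.41.

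*H2-D1*, a second classical heavy chain, has 9 probe sets, of which 5 lay above the floor on any array. The brightest gave 375, 504 and 823 in the order of the stages, and the next 331, 473 and 865. Their ratios to before fusion were 1.34 and 1.43 during and 2.19 and 2.62 after fusion. The probe set with the largest ratio gave 39.1, 67.3 and 170, which is 1.72-fold higher during and 4.34-fold higher after fusion. One more gave 13.5, which is under the floor, then 18.5 and 32.9, a bound of 1.70-fold after fusion, and the fifth exceeded its floor only during fusion (15.4). Classical H2 genes are known to be highly polymorphic, and whether these probe sets match the alleles of the fetuses was not tested, so a probe set under the floor does not show that the gene was silent. A further 3 probe sets name *H2-K1* or *H2-D1* together with other genes and were left out.

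*Psmb8* and *Psmb9* encode inducible catalytic subunits of the immunoproteasome, and *Tap1* one chain of the peptide transporter; the 3 genes neighbour each other on chromosome 17. *Psmb8* gave 14.6, under the floor, then 24.9 and 53.6, so that it was higher by at least 1.29-fold during and by at least 2.77-fold after fusion. It was the only one of these 10 genes whose brightest probe set was over 2-fold higher after than during fusion (2.15-fold), a ratio that ran from 1.88 to 2.38 over 6 scalings. *Psmb9* had a signal of 33.8, 43.0 and 61.6, with ratios of 1.27 during and 1.83 after fusion, short of 2-fold. The measured probe set of *Tap1* had 54.0, 82.9 and 89.1, with ratios of 1.54 and 1.65 to before fusion, and 1.07 from during to after fusion; the last was 0.940 with the arrays scaled on the hybridization controls and has no settled direction. The other 3 probe sets of *Tap1* and the other of *Psmb8* lay under the floor on all arrays.

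**Figure D2:**
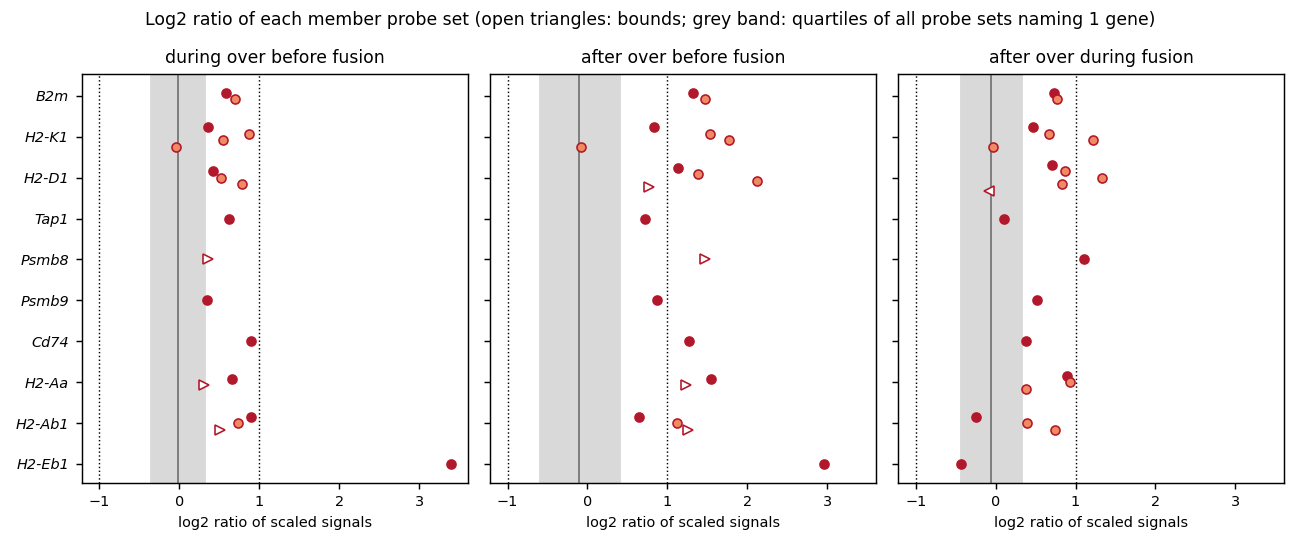
Log2 ratio of the scaled signals of each member probe set in the 3 comparisons, with bounds as open triangles, brightest probe sets in dark red, dotted lines at 2-fold and the grey band and line giving the quartiles and median of all probe sets naming 1 gene. In after over before fusion, 19 of the 20 member probe sets with a ratio lie above 0, beside 44.6% of all, and 14 beyond 2-fold. Of the 20, 4 are bounds, which are given only on the side they point to. *H2-Eb1* lies apart at 3.39 in during over before fusion.

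*H2-Eb1*, the β chain of the class II I-E molecule, is read by a single probe set, not marked as shared. Its scaled signal was 24.6 before, 259 during and 192 after fusion. The ratio to before fusion was 10.5 during and 7.81 after fusion, and after fusion it stood at 0.743 of the signal during fusion. Among 12124 genes above the floor on both arrays, its ratio during fusion ranked 16, and after fusion 117 of 12013. The signal before fusion lay close to the floor. Whether this probe set matches the alleles of the fetuses at each stage was not tested. Over 6 scalings the ratio ran from 8.51 to 12.8 during and from 5.96 to 8.82 after fusion, and from 0.650 to 0.821 for after over during fusion. Its partner chain is encoded by *H2-Ea*, looked up after these values were seen and annotated in GRCm38.p6 as a transcribed pseudogene. Whether this annotation of the reference genome holds for the outbred ICR fetuses was not tested. Of the 3 probe sets of *H2-Ea*, 2 lay under the floor on all arrays and the other exceeded it only during fusion, at 14.2.

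The other class II genes had smaller ratios. *H2-Ab1*, the β chain of I-A, gave 99.7, 185 and 156 on its brightest probe set, with ratios of 1.86 and 1.57 to before fusion and 0.843 from during to after fusion. On its other 2 probe sets the signal went on upward, from 33.7 to 55.9 and 73.5 on one and from 6.47, under the floor, to 27.6 and 46.4 on the other, which were 2.18-fold and at least 2.40-fold higher after than before fusion. The course after 24 h therefore depends on the probe set; the brightest and 1 of the other 2 are marked as shared. *H2-Aa*, the α chain of I-A, had on its brightest probe set 23.97, 37.7 and 70.1, with ratios of 1.57 during and 2.93 after fusion. The next was higher by at least 1.23-fold during and at least 2.36-fold after fusion, another passed the floor only later, at 14.1 and 18.4, and the last lay under it on all arrays; all 4 are marked as shared. *Cd74*, the invariant chain, gave 51.3, 95.1 and 124 on its only probe set, with ratios of 1.86 and 2.41. Both chains of I-A and the invariant chain were thus higher at both later stages, and none came near the ratio of *H2-Eb1* during fusion.

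By the brightest probe set of each gene, 6 of the 10 genes were over 2-fold higher after than before fusion (*B2m*, *H2-D1*, *Psmb8*, *Cd74*, *H2-Aa* and *H2-Eb1*), beside 12.9% of 13595 genes, and 0 were lower, beside 9.92%. With the arrays scaled on the poly-A controls 3 of the 10 were (*Psmb8*, *H2-Aa* and *H2-Eb1*), since *B2m* then had 1.91, *Cd74* 1.84 and *H2-D1* 1.67. *H2-K1*, *Tap1*, *Psmb9* and *H2-Ab1* had ratios from 1.57 to 1.83. During fusion only *H2-Eb1* passed 2-fold, beside 5.78% of 13217 genes higher and 3.36% lower, and from during to after fusion only *Psmb8*, beside 8.82% of 14213 higher and 5.13% lower. All 10 had a ratio above 1 in both comparisons with before fusion, beside 48.7% of all genes during and 46.1% after fusion. For *Psmb8* this was a bound, and a bound under 1 is not given, so it could not have counted below 1. The other genes stayed above 1 under each of the 6 scalings. With the poly-A controls *Psmb9* and *H2-K1* came down to 1.03 and 1.04 during fusion, and the bound of *Psmb8* was 1.04.

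The other genes of the pathway were read by the brightest probe set of each, with lists chosen for their function. The counts after fusion are to be read beside the 12.9% of all genes over 2-fold higher and the 9.92% over 2-fold lower. In the lists too, a gene under the floor before fusion enters the counts only if it was brighter later. Of 7 genes of class I peptide loading, 3 were over 2-fold higher after than before fusion and 0 lower; none passed 2-fold during fusion. The 3 were *Tap2*, the second chain of the transporter (15.9, 31.6 and 66.8; at least 3.45-fold), *Erap1*, which trims peptides in the endoplasmic reticulum (41.5, 66.8 and 119; 2.86-fold), and *Tapbp*, tapasin (236, 462 and 643; 2.73-fold). The general chaperones of the list did not share this: *Calr* had a ratio of 0.864, *Pdia3* of 1.00 and *Canx* of 1.26 after fusion. *Tapbpl*, a relative of tapasin, had 1.35. The constitutive proteasome genes *Psmb5*, *Psmb6* and *Psmb7*, whose products the inducible subunits replace, had ratios of 0.907, 1.39 and 0.870 after fusion. *Psmb10*, another inducible subunit, had 1.54, and *Psme1*, of the proteasome activator, 0.943.

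Of 9 class II loading and processing genes, 8 have a probe set naming 1 gene. After fusion, 2 of the 5 with a ratio to before fusion were over 2-fold higher: *Ctss*, a cathepsin that cuts the invariant chain (133, 346 and 925; 6.93-fold), and *Lgmn*, an endosomal protease (255, 492 and 635; 2.49-fold). *Ifi30*, a thiol reductase of lysosomes, had a ratio of 1.75. *H2-DMa*, which helps to exchange CLIP for peptide, had 110, 67.5 and 121, with ratios of 0.615 during and 1.10 after fusion. *H2-Ob* and *H2-Eb2* were under the floor on all arrays. Of 18 other class I and class I like genes, 10 have such a probe set, and 0 of 7 passed 2-fold in either direction after fusion. *Mr1*, which presents vitamin metabolites, and *Fcgrt*, an Fc receptor, had ratios of 1.77 and 1.60 after fusion, and *H2-T3* was at least 1.58-fold lower. *Cd1d1*, which presents lipids and was picked after its values were seen, had 156 before, 313 during and 174 after fusion.

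Of 13 regulators, 3 of 11 with a ratio were over 2-fold higher after fusion, beside 12.9% of all genes, and 1 was lower, beside 9.92%. *Irf8*, a factor of myeloid cells, had 27.1, 50.9 and 100.2 (3.70-fold), *Irf1*, an interferon-induced factor, 115, 182 and 311 (2.71-fold), and *Irf2* 40.1, 65.7 and 85.8 (2.14-fold). *Rfxank*, a subunit of the RFX complex that binds the X box, was lower, at 176, 128 and 66.8 (2.63-fold lower). The coactivators gave low signals: *Ciita* had 20.7, 19.7 and 11.0, under the floor only after fusion, and *Nlrc5* 15.7, 15.7 and 15.8, under it only before fusion. Of 23 genes of the interferon γ pathway and interferon-induced genes, 7 of 17 with a ratio were over 2-fold higher after fusion, beside 12.9% of all genes, and 0 lower, beside 9.92%, with a median log2 ratio of 0.92. *Usp18* was at least 8.06-fold higher, *Bst2* 3.72-fold, *Rsad2* 3.69-fold and *Irf7* 3.53-fold. The rest of the 7 were *Ifit3*, *Ifit1* and *Cxcl10*, each a bound. *Socs1*, *Igtp*, *Irgm1* and *Iigp1* of the same list had ratios from 1.29 to 1.57 after fusion. *Iigp1* was 2.40-fold higher during fusion. *Gbp2* was at least 1.84-fold higher after fusion, and *Cxcl9* lay under the floor on all arrays. Which interferon the ratios of this list go with was not tested. *Ifng* itself lay under the floor on all arrays (1.00, 2.66 and 3.95), and the receptor genes *Ifngr1* and *Ifngr2* had ratios of 1.19 and 1.95.

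**Figure D3:**
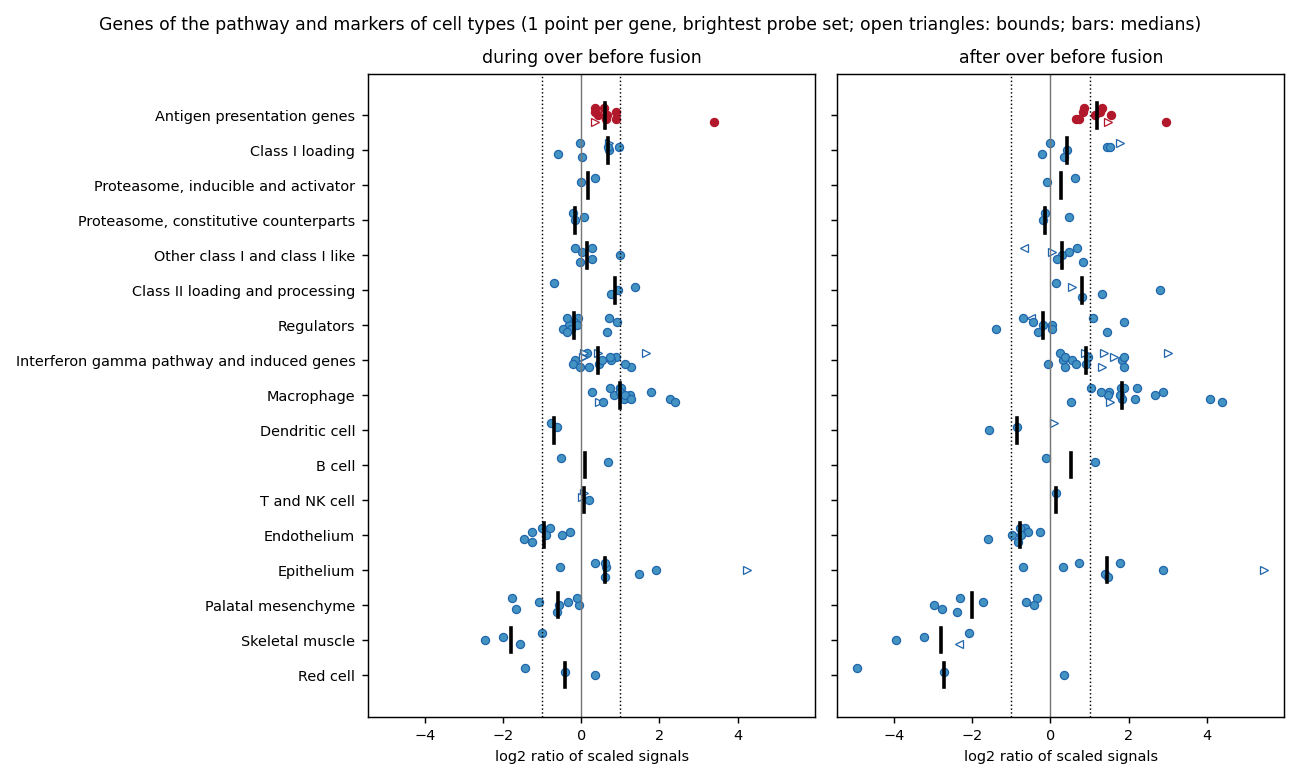
Log2 ratio to the array before fusion of each gene (1 point per gene, brightest probe set, bounds as open triangles) in the 10 antigen presentation genes (red) and in the lists of the pathway and of cell types (blue), with black bars for medians and dotted lines at 2-fold. After fusion the macrophage genes lie highest among the immune cell lists, with a median of 1.83, and the constitutive proteasome genes lie near 0.

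Markers of other cells also differed between the stages, some upward with these genes and others downward. Of 17 macrophage genes, 16 passed the floor on 1 array or more, 8 of 16 were over 2-fold higher during fusion (beside 5.78% of all genes) and 15 of 16 after fusion (beside 12.9%), and their summed scaled signal was 988 before, 2073 during and 4501 after fusion. *Lyz2*, lysozyme, had 37.3, 197 and 776, *Cd68*, a lysosomal protein of phagocytes, 28.1, 136 and 478, *Fcgr3*, an Fc receptor, 35.3, 122 and 262, and *Tyrobp*, a signaling adaptor, 93.3, 221 and 599. *Itgam* was the gene of this list under the floor throughout. The 8 epithelial genes had a summed signal of 8981, 15795 and 22895, with 5 of 8 over 2-fold higher after fusion. The 5 were all keratin genes, while *Cdh1*, *Epcam* and *Trp63* had ratios of 1.67, 1.26 and 0.613. The endothelial genes had a summed signal of 1421, 790.5 and 859, with 0 higher. Of the endothelial genes, 4 of 8 were over 2-fold lower during fusion (beside 3.36% of all genes) and 1 of 8 after fusion (beside 9.92%). The 8 genes of the palatal mesenchyme went the other way, with a summed signal of 9882 before, 5431 during and 3408 after fusion, 5 of 8 over 2-fold lower after fusion and a median log2 ratio of -2.02. The 4 skeletal muscle genes summed to 981, 220 and 83.6, all 4 over 2-fold lower after fusion, and 3 red cell genes to 14529, 9784 and 1922, 2 of them lower. Markers of dendritic, B and T cells gave little signal: 2, 2 and 1 of their 9, 5 and 8 genes lay above the floor before fusion and 4, 2 and 2 after it, and their summed signals were 152, 107 and 102 for dendritic cells, 117, 151 and 189 for B cells and 80.7, 94.4 and 85.2 for T and NK cells. Of the 3 dendritic cell genes with a ratio of after to before fusion, 1 was over 2-fold lower, *Batf3* (67.3, 43.7 and 22.5; 2.99-fold lower), and 0 were higher. Of the B cell genes only *Blnk*, also known from macrophages, was over 2-fold higher after fusion (2.21-fold); *Cd79a* and *Ms4a1* were under the floor on all arrays, as were *Cd3e*, *Cd3g* and *Cd4*. In such bulk tissue a change in the number of cells of a type and a change in RNA per cell cannot be told apart, and the part of these shifts between cell types in the signals of the antigen presentation genes was not tested.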

How the data were processed

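Total RNA of palatal tissue was hybridized to 3 Affymetrix GeneChip arrays, 1 per stage, as the labels state; the hours in culture come from the study's methods. The authors computed the deposited signal intensity of each probe set with the MAS5 algorithm in GeneChip Operating Software, background-corrected and on a linear scale; a scaling target and a genome build are not given in the sources used here. The paper names Trizol for RNA extraction, the labels a column kit.

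The table holds 45101 probe sets, 64 of them controls; 34945 name 1 gene in the GEO platform annotation, of which 34741 symbols were matched by gene ID to GRCm38.p6, 932 name several and 9160 none. Leaving out the top and bottom 2% of values, the array means were 124 (before), 150.0 (during) and 139.7 (after fusion); multiplying by 1.11, 0.918 and 0.986 brought them to one value. The number of arrays limits the precision. Steps were run in Python 3.11.15 with pandas 2.3.3 and tested on simulated data. The members and lists were chosen with earlier results of these data known. Named are all 10 members, up to 4 genes of each list with the largest ratio of after to before fusion, and genes past 2-fold against their list; others named were picked for their function after their values were seen. Alternatives were 5 other scalings, no floor, a floor at the median of each array, the mean floor added to both signals, the brightest probe set of each gene, no probe sets marked as shared, and thresholds of 1.5-fold and 4-fold. Where a deposited 0 needed a log, 0.1 was used.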

Additional observations from a re-analysis of the deposited data

How the results depend on the processing

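The median log2 ratio of the member probe sets stayed above 0 in each comparison under all alternatives run, from 0.30 to 0.85 for during over before, from 0.87 to 1.44 for after over before and from 0.49 to 0.85 for after over during fusion. The counts of probe sets over 2-fold moved more. For after over before fusion, 14 were higher, against 7 with the poly-A controls, 6 with the brightest probe set of each gene, 6 without probe sets marked as shared and 2 at 4-fold. By gene, 6 of 10 were higher after than before fusion, 8 without any scaling and 3 with the poly-A controls. For during over before fusion, 1 probe set was higher, against 6 with the signals as deposited, 5 with no floor and 10 at 1.5-fold, beside 13.3% of all probe sets at that threshold. For after over during fusion, 3 were higher. Scaling to one median gave 6, and the count was 8 with no floor, 12 at 1.5-fold (beside 15.7%), 1 with the brightest probe set of each gene, 1 without probe sets marked as shared and 0 at 4-fold. With no floor, 4 probe sets were lower during than before, 2 after than before and 3 after than during fusion; the floor removes ratios between signals at background. The smaller sets of probe sets and the stricter threshold give lower counts by construction, and for the scalings the shift of all ratios is the cause: the poly-A controls moved the log2 ratios by -0.30 for during over before and by -0.39 for after over before fusion, the signals as deposited by 0.28 and 0.18. Of 239 values of single genes under the alternatives, 2 lost their direction: *Tap1* for after over during fusion, 0.10 on the log2 scale, took 0 without any scaling and -0.09 with the hybridization controls. Another 4 moved by more than the spread between probe sets: *H2-Eb1* fell to 2.77 during and 2.37 after fusion on the log2 scale with the floor added, and *Psmb8* took 0.97 after fusion with the floor at the median and 0.77 during fusion with no floor. Genes near the floor before fusion, *Psmb8*, *H2-Aa* and *H2-Eb1*, have the least certain ratios, and with 1 array per stage no alternative replaces a replicate.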
